A study of Saccharomyces cerevisiae with 6 samples.

Results

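The genes described here build the glucan and chitin of the budding yeast cell wall or govern that synthesis. They are 10 genes, taken by symbol from the array's gene table: FKS1, GSC2, RHO1, GAS1, BGL2, CRH1, CHS1, CHS2, CHS3 and SLT2. They are 10 of 5656 genes that have a probe set of their own, and all 10 were bright enough to be among the 4525 genes tested. Signals were measured on 6 single-colour arrays of Saccharomyces cerevisiae RNA, 3 from wild-type yeast and 3 from yeast carrying the histone H2B variant 3-32. In work on such strains the notation stands for loss of residues 3 to 32, a stretch of the amino-terminal tail. Cells of both strains were grown in YPD, a rich glucose medium, to mid-log phase. The sources used here state neither the strain background or mating type nor whether the H2B genes sit on a chromosome or a plasmid. One wild-type array, replicate 3, is labelled as the control for further H2B mutants as well. HTB1, the H2B gene bright enough to be tested, averaged 16.9 ± 2.21 (SD, n = 3) in the mutant, compared with 1234 ± 122 (n = 3) in the wild-type arrays. Whether its probe set lies within the altered stretch is not stated.

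The yeast wall is a mesh of beta-1,3-glucan chains to which beta-1,6-glucan, chitin and mannoproteins are attached. A plasma membrane synthase spins out the beta-1,3-glucan, and enzymes outside the membrane then elongate, branch and cross-link it. Chitin is a minor component that forms the bud neck ring and the primary septum. Wall damage is sensed at the cell surface and passed through Rho1, protein kinase C and a kinase cascade that ends in Slt2, which switches on wall genes in the nucleus. The 10 genes were chosen by function and with their signal levels and mutant minus wild-type log2 changes in these same arrays in view. Those values are therefore given as a description. How many of the 10 the fit over all genes calls is stated beside the same share of all genes, and it supports no statement about them.

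Of the 10 genes, GSC2 stood apart: its signal was higher in the mutant in every same-numbered pair of arrays, by 1.58-fold on average. The other 9 had mean log2 differences between -0.28 and 0.07. SLT2 and BGL2 were lower in the mutant in all 3 pairs, by small amounts, and the remaining 7 went both ways among the pairs. The limma fit over all 4525 genes with the group alone called 0 of the 10, and 1 of 10 had an unadjusted p under 0.05, as had 2.5% of all genes tested. That fit called 0.0221% of all genes, a single gene, HTB1, at an adjusted threshold of 0.05. With the replicate number as a block the fit called 1 of the 10, GSC2, as higher and 0 as lower. It called 2.28% of all genes, 0.884% higher and 1.39% lower. Since the choice of the 10 drew on this comparison, nothing is read from those counts.

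The median log2 difference of the 10 genes was -0.09, beside -0.06 over all genes tested. Among them 8 of 10 lay below 0, against 2853 of 4525 genes (63.1%). Scaling the arrays to a common median left 6 of 10 below 0, with 55% of all genes. Being higher in all 3 pairs was true of 1 of the 10 (11.5% of all genes), and being lower in all 3 of 2 (27.4%).

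FKS1 encodes the main catalytic subunit of beta-1,3-glucan synthase in growing cells. Its brightest probe set gave 1290, 1574 and 1323 on wild-type arrays 1, 2 and 3 and 1272, 1345 and 1462 on the mutant arrays. The groups overlapped, and the highest and lowest of the 6 values were wild type 2 and mutant 1. The means were 1396 ± 156 and 1359.9 ± 95.7 (n = 3), a log2 difference of -0.03 that is smaller than the spread within either group.

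GSC2, also called FKS2, encodes the alternative catalytic subunit, which is known to be made in place of Fks1 when glucose runs out, in heat, under calcium stress through calcineurin, and during sporulation. Its brightest probe set read 45.5, 45.1 and 66.2 in wild type and 62.6, 83.6 and 108 in the mutant. The lowest mutant array lay just under the highest wild-type array, so the groups overlapped, although each mutant array exceeded its same-numbered partner. The log2 difference was 0.44 in pair 1, 0.85 in pair 2 and 0.69 in pair 3. The mean was 0.66 ± 0.21 (SD of 3 pairs), with group means of 52.3 ± 12.1 and 84.8 ± 22.9. In both groups replicate 3 gave the highest value, by 0.52 in wild type and 0.56 in the mutant on the log2 scale over the mean of replicates 1 and 2. The log2 difference was 0.77, 0.56 and 0.79 without the pair of replicate 1, 2 or 3, and with the block the gene was not called without the pair of replicate 2 or 3.

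RHO1 encodes the GTPase that activates the synthase and also signals to protein kinase C. Wild-type arrays gave 569, 543 and 646 and mutant arrays 561, 559 and 618. Its pairs differed least among the 10 genes, from -0.06 to 0.04 on the log2 scale and a mean of -0.01 ± 0.05.

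**Figure D1:**
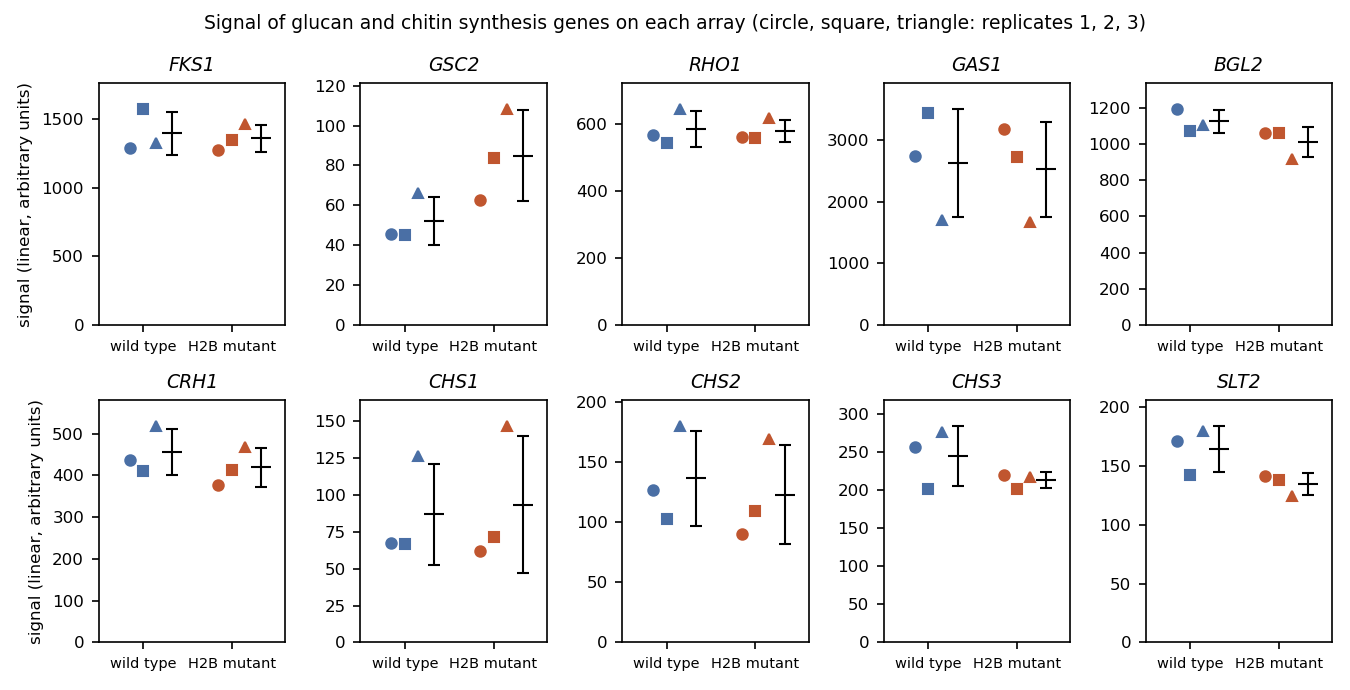
Signal of each of the 10 genes on the 6 arrays (linear scale from 0, arbitrary units; blue wild type, orange mutant; circles, squares and triangles are replicates 1, 2 and 3; the bar beside each group is its mean ± SD, n = 3). GSC2 lies higher in the mutant at each replicate number, while GAS1, CHS1 and CHS2 differ mainly between replicate 3 and the other arrays in both groups.

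Among the enzymes that rework glucan once it is outside the membrane, GAS1 encodes a membrane-anchored transferase that elongates beta-1,3-glucan. Its signal was 2738, 3445 and 1708 in wild type and 3174, 2731 and 1664 in the mutant. Both replicate 3 arrays were far below the others, and the groups overlapped fully. The log2 difference was 0.21, -0.33 and -0.04 in the 3 pairs, with a mean of -0.05 ± 0.27. It was -0.33 without wild-type replicate 3 and 0.22 without mutant replicate 3, which leaves the groups unequal in replicate 3. Without the whole pair of replicate 1, 2 or 3 it was -0.19, 0.09 and -0.06.

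BGL2 encodes a major wall glucanase that also joins glucan chains. It read 1194, 1074 and 1107 in wild type and 1059.8, 1058 and 918 in the mutant. All mutant arrays were below all wild-type arrays, although the nearest of the opposite groups differed by little. The mean log2 difference was -0.15 ± 0.12, and it was largest in pair 3 (-0.27) and close to 0 in pair 2 (-0.02).

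CRH1 encodes a transglycosylase that attaches chitin to glucan. The arrays gave 438, 412 and 518 in wild type and 376, 414 and 468 in the mutant, which overlap. Its mean log2 difference was -0.12 ± 0.11, with pair 2 at 0.01.

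The chitin synthases are known to divide the work: Chs1 repairs the wall at cell separation, Chs2 lays down the primary septum, and Chs3 makes the bulk of the chitin, including the ring at the bud neck. CHS1 read 67.5, 66.7 and 127 in wild type and 62.2, 71.8 and 147 in the mutant. The replicate 3 arrays of both groups were the high ones, and the groups overlapped. The mean log2 difference between mutant and wild type was 0.07 ± 0.16, against 1.00 between replicate 3 and the mean of replicates 1 and 2, averaged over both groups. Leaving out wild-type replicate 3 moved the mutant difference to 0.36, and leaving out mutant replicate 3 moved it to -0.30. Such a step leaves the groups unequal in replicate 3. Without the whole pair of replicate 1, 2 or 3 the difference was 0.15, 0.05 and -0.005.

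CHS2 behaved in the same manner across the arrays, with 127, 103 and 180.0 in wild type and 90.5, 109 and 169 in the mutant. Replicate 3 was again highest in both groups, by 0.65 and 0.75 on the log2 scale. The mean difference of -0.16 ± 0.28 came mainly from pair 1 (-0.47). It was 0.06 without wild-type replicate 3 and -0.41 without mutant replicate 3, again with groups unequal in replicate 3. Without the whole pair of replicate 1, 2 or 3 it was -0.003, -0.28 and -0.20.

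CHS3 gave 257, 201 and 277 in wild type and 221, 202 and 217 in the mutant. Wild type 2 was the lowest array of all, so the groups overlapped. The wild-type arrays varied more (245 ± 39.1) than the mutant arrays (213 ± 10.1), and the mean log2 difference was -0.19 ± 0.18.

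SLT2 encodes the mitogen-activated protein kinase at the end of the wall integrity cascade. Its signal was 171, 142 and 179 in wild type and 142, 138 and 124 in the mutant. All mutant values lay below all wild-type values, but wild type 2 (142.4) and mutant 1 (141.7) were almost the same. The mean log2 difference was -0.28 ± 0.24, and its single values were -0.27, -0.04 and -0.52. Along with BGL2 it was 1 of 2 genes among the 10 whose groups did not overlap with the mutant lower, as in 4.99% of all genes tested. None of the 10 had groups that did not overlap with the mutant higher (0 of 10, against 2.65% of all genes).

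**Figure D2:**
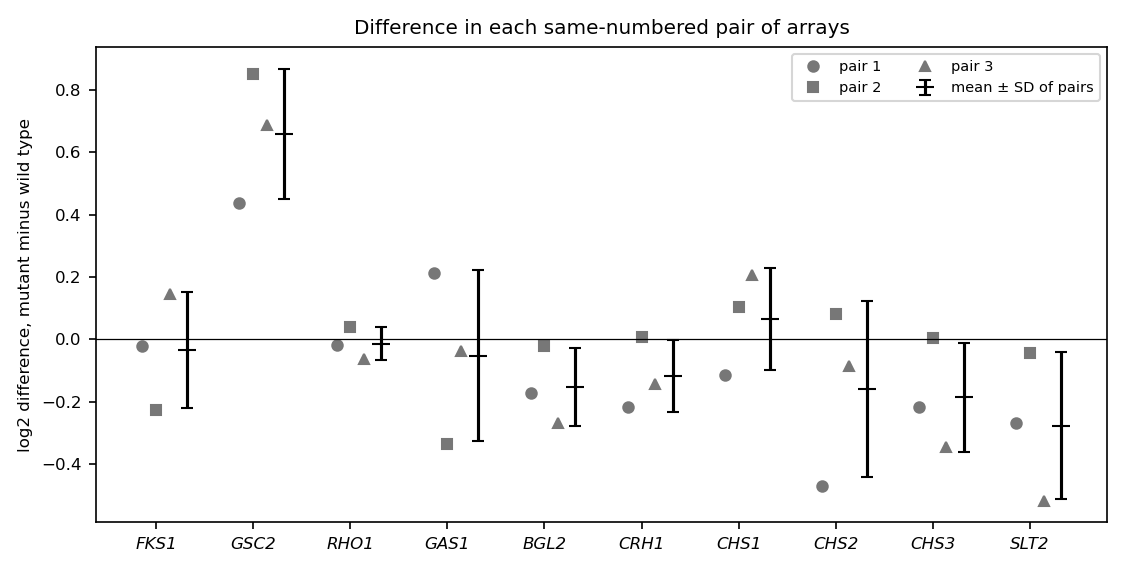
Log2 difference of mutant minus wild type in each same-numbered pair of arrays for the 10 genes (grey markers), with the mean ± SD of the 3 pairs (black). All pairs of GSC2 lie between 0.44 and 0.85, above every pair of the other genes, whose highest is 0.21, and the lowest pair is SLT2 in pair 3 at -0.52.

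The replicate number carried more of the variation than the strain for part of these genes. Averaged over both groups, replicate 3 differed from replicates 1 and 2 by a median absolute log2 of 0.22 over the 10 genes, while mutant and wild type differed by 0.14. In 5 of 10 genes the replicate 3 difference was the larger one, and over all genes tested this held for 79.9%. Of these 5, replicate 3 was higher for CHS1 (1.00), CHS2 (0.70), CRH1 (0.27) and RHO1 (0.18), and lower for GAS1 (-0.83). For GSC2 the replicate 3 difference (0.54) was the smaller one. On both replicate 3 arrays the spiked hybridisation controls averaged 196 and 203, against 682 to 899 on the other 4 arrays. The median signal of the other probe sets was 40 and 40.5 there and 28.7 to 31 elsewhere. Ribosomal RNA controls also differed between the strains. Those for 25S averaged 143, 217 and 91.5 in wild type and 682, 336 and 203 in the mutant. Those for 18S averaged 88.5, 124 and 29.3 against 385, 169 and 34.5, so both were higher in the mutant in each pair. The part of these array differences in the values of the 10 genes was not tested.

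**Figure D3:**
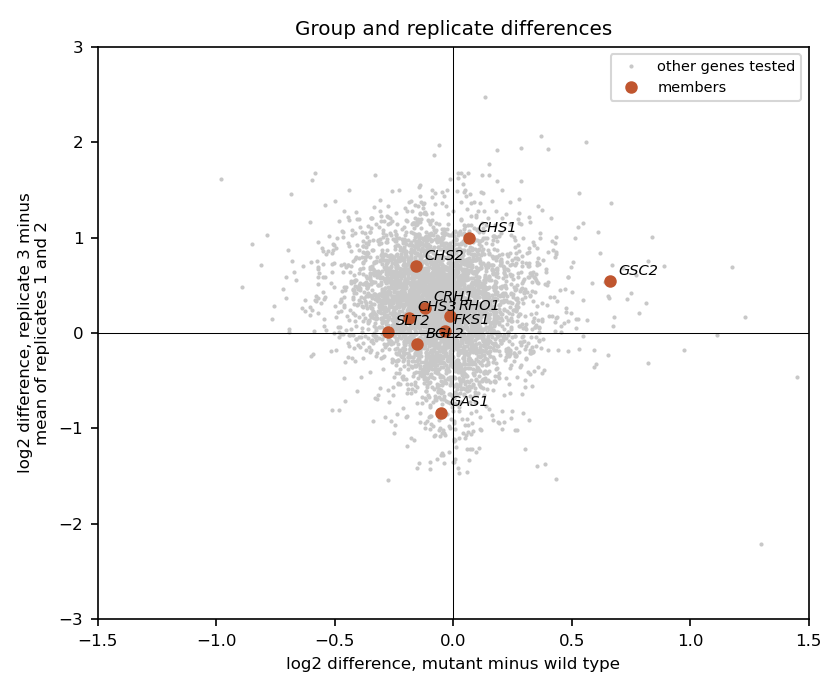
Each gene's log2 difference between mutant and wild type (horizontal) against its log2 difference between replicate 3 and the mean of replicates 1 and 2, averaged over both groups (vertical). Orange points are the 10 genes and grey points the other genes tested, with HTB1 left off. GSC2 is the orange point farthest right (0.66), and CHS1 (1.00) and GAS1 (-0.83) are the highest and lowest orange points.

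Long genes carry several probe sets on this array, which gave further readings of the synthase genes. FKS1 had 8 probe sets of its own and GSC2 had 7. Each gene had 6 whose names mark possible signal from related sequences, so signal from the other gene of this closely related pair cannot be told apart there. Where each probe set lies along its gene is not stated. The remaining 8 genes had 1 probe set each.

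All 7 probe sets of GSC2 had a mean log2 difference above 0, from 0.04 to 0.66, and 3 of 7 were higher in the mutant in all 3 pairs. Next to the brightest set, probe set 2210_s_at was the clearest. It read 44.7, 45.1 and 18.7 in wild type and 78.6, 81 and 24.8 in the mutant, a mean log2 difference of 0.65. Here replicate 3 was the lowest array in each group, the opposite of the brightest set, and the mutant was still higher in each pair (0.78, 0.81 and 0.36). Probe set 2211_s_at gave 54.5, 38.3 and 34.9 against 52.3, 51.7 and 67.3, higher in 2 of 3 pairs. Another 4 sets had mean signals between 1.85 and 12.6, which is near the dim end of the arrays.

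A further probe set, 2205_at, is assigned to both GSC2 and its chromosomal neighbour IMO32, which encodes a mitochondrial protein, and was not used in the fit. It read 20, 21.1 and 28.5 in wild type and 23.5, 29.4 and 33.1 in the mutant, higher in all 3 pairs. IMO32's own probe set went the other way, with 50.5, 48.7 and 61.1 in wild type and 41.4, 46.4 and 45.2 in the mutant. The neighbour's signal was therefore lower in the mutant in all 3 pairs (mean log2 difference -0.25, not called in either fit).

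The FKS1 probe sets also lay mostly above 0, but less uniformly than those of GSC2, and the brightest FKS1 set did not. Their mean log2 differences ran from -0.03 to 0.45, with 6 of 8 above 0 and 2 of 8 higher in all 3 pairs. The largest, 0.45 in 2835_at, was carried by pair 2 (0.93), where wild type 2 was low (28.8 against 50.2 on wild type 1). Wild type 2 was also below wild type 1 by a clear margin in 2837_s_at, 2838_s_at and 2841_s_at. It was not so in 2836_g_at, the other set higher in all 3 pairs (0.30, 0.41 and 0.05, mean 0.25).

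In both strains the FKS1 probe sets with low numbers were dimmer on replicate 3. Probe set 2836_g_at read 173, 165 and 31 in wild type and 214, 221 and 32.1 in the mutant. Replicates 1 and 2 were thus 5.1-fold and 6.32-fold above replicate 3, on the scale of the offset signal, while for the brightest set these ratios were 1.08 and 0.89. From 2835_at to 2841_s_at the mean signal over all arrays went from 34.7 to 854. At the first of these, replicate 3 differed from the mean of replicates 1 and 2 by a log2 of -1.99 in wild type and -2.20 in the mutant, and at the last by -0.36 and -0.67. Control probe sets to both ends of YFL039C, the actin gene, gave a ratio of the 3′ to the 5′ set of 1.38 and 1.46 on the replicate 3 arrays and 1.59 to 1.9 on the others. For a second control gene, YER022W, the ratio was 3.2 and 3.15 on replicate 3 and 1.04 to 2.25 on the others. For another, YER148W, it was 3.75 and 3.00 on replicate 3 and 3.33 to 3.59 on the others, so the controls did not share a direction. Whether transcript ends or labelling have a part in the FKS1 values was not tested.

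**Figure D4:**
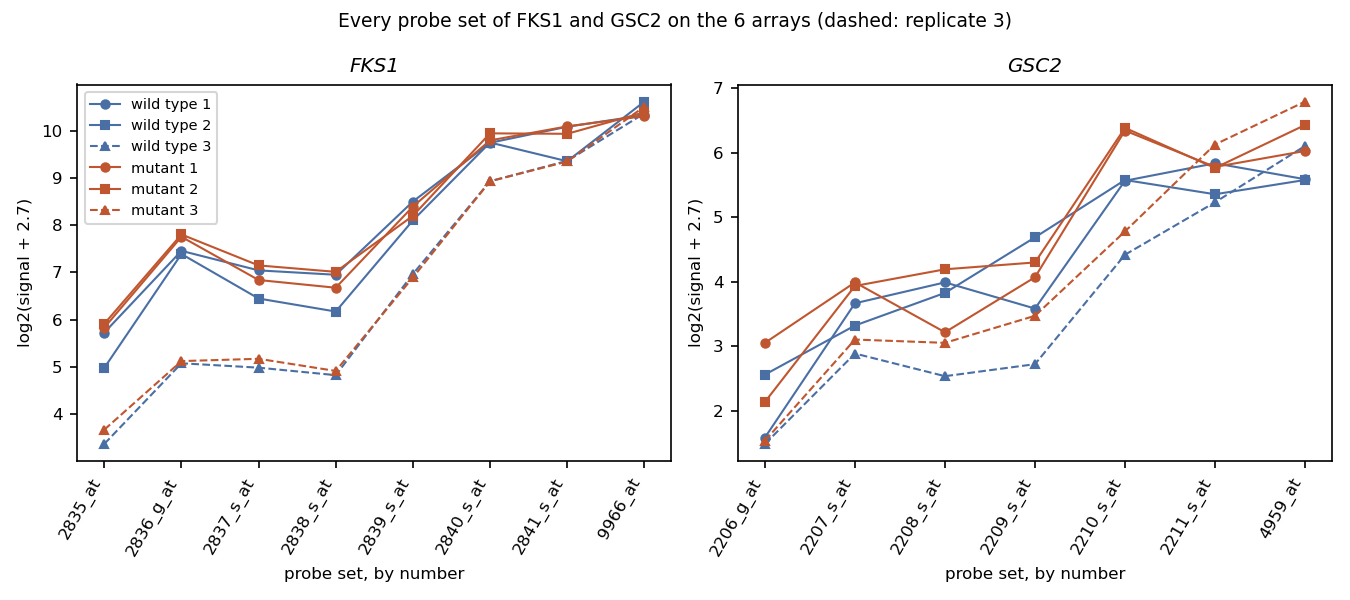
Log2 of signal plus 2.7 for each probe set of FKS1 (left, 8 sets) and GSC2 (right, 7 sets) in order of probe set number, with 1 line per array (blue wild type, orange mutant, dashed lines replicate 3). The replicate 3 lines of both strains lie below the others for the low-numbered FKS1 sets and meet them at 9966_at, while for GSC2 the orange lines lie above the blue line of the same replicate at 2210_s_at and 4959_at.

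FKS3, the third gene of the family, has a role in spore wall formation. Its brightest probe set was dim and overlapped between groups (19.7, 25.9 and 15.9 against 19.2, 21.2 and 19.4). The mean log2 difference was -0.01, and the gene was called in neither fit. FKS3 had 8 probe sets, all dim, with mean signals from 1.5 to 20.2. Of these, 5 of 8 had a mean log2 difference above 0, and 3 of 8 were higher in the mutant in all 3 pairs. The largest difference, 1.22 in 2788_at, came without overlap at low signal (1.9, 0.9 and 1.7 against 8.1, 5.4 and 7.9).

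The rest of the wall pathway was followed through 94 other genes in 8 lists drawn up by function. Each had a probe set of its own, and 81 passed the filter on dim genes. With the replicate block 1 of the 81 fell, 0 rose and 80 did not pass, beside 1.39% of all genes lower and 0.884% higher. With the group alone 0 of the 81 passed (1 of 81 had an unadjusted p under 0.05, beside 2.5% of all genes, and HTB1 was the only one of all genes to pass). Groups did not overlap in 5 of the 81 with the mutant lower and in 0 with it higher, beside 4.99% and 2.65% of all genes. Nothing is read from that count, which is near the share of all genes. The median log2 difference of the 81 was -0.10, and 59 of 81 (72.8%) lay below 0. Over all genes tested the median was -0.06, with 63.1% below 0. With a common median for all arrays these values were -0.06 and 65.4% for the 81 and -0.02 and 55% for all genes.

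The gene that fell was VCX1, which encodes a vacuolar exchanger that removes calcium from the cytosol, listed with the calcineurin pathway. Its signal was 352, 371 and 345 in wild type and 262, 248 and 263 in the mutant, with no overlap and little spread. The log2 difference was -0.46 (limma adjusted p = 0.0173 with the replicate block, 1.00 with the group alone, n = 3). With the block the call was lost without the pair of replicate 2 (log2 -0.41, adjusted p = 0.174) and without that of replicate 3 (log2 -0.50, adjusted p = 0.187). The other 8 genes of that list did not pass, among them CRZ1, the transcription factor activated by calcineurin (log2 -0.16), RCN1, which binds calcineurin (0.10), and PMC1, a vacuolar calcium pump (-0.10). The list's median was -0.10.

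In the list of glucan synthase regulators 0 of 8 tested genes passed in either fit, with a median log2 difference of -0.03. SMI1, a regulator of glucan synthesis, had -0.11 and ROM2, an exchange factor that activates Rho1, had 0.10. LRG1, which switches Rho1 off, had the largest difference of that list (-0.28), negative in all 3 pairs.

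Assembly of beta-1,6-glucan gave 0 of 9 passing and a median of -0.05. KRE6, a membrane protein needed for this polymer, had a log2 difference of -0.01, and 6 of 9 genes lay below 0. KRE1 (0.18) and ROT1 (0.13) were higher and SKN1 (-0.18) and KEG1 (-0.19) lower in all 3 pairs without passing, and KRE5 had the largest difference (-0.21).

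For the remodelling enzymes other than GAS1, BGL2 and CRH1, 0 of 9 passed and the median was -0.09. GAS5, a relative of GAS1, was level at 520 and 517 (log2 -0.01), whereas GAS3, another relative, had 0.25. SCW11, a glucanase family gene, had the largest difference of the list (-0.36, lower in all 3 pairs, adjusted p = 0.0913 with the block). SCW10, a wall glucanase family gene, read 722, 753 and 686 in wild type and 630, 638 and 598 in the mutant, without overlap (log2 -0.21, adjusted p = 0.262 with the block).

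Chitin precursor synthesis, delivery of Chs3 and chitin breakdown were covered by 13 tested genes, of which 0 passed, with a median of -0.14. GFA1, the first enzyme of the precursor pathway, had a log2 difference of -0.20, and GNA1, the next step, 0.23. SKT5, an activator of Chs3, was lower in all 3 pairs (-0.22, -0.16 and -0.67), and its wild-type replicate 3 (158) stood well above the other wild-type arrays (92.7 and 79.1). CHS7, needed for Chs3 to leave the endoplasmic reticulum, had -0.15, and CTS1, the chitinase of cell separation, -0.14.

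Sensors, kinases and transcription factors of the wall integrity cascade gave 0 of 14 passing, with a median of -0.06. SLG1, the sensor also called WSC1, read 92, 81.8 and 92.4 in wild type and 63.7, 67.8 and 74.7 in the mutant. These groups did not overlap, with a log2 difference of -0.36 (adjusted p = 0.121 with the block). PKC1, protein kinase C, had -0.09. RLM1, the transcription factor that Slt2 activates, read 25.3, 122 and 161 in wild type and 87.5, 87 and 126 in the mutant. Its mean log2 difference of 0.29 came from wild type 1 alone and was -0.49 without that array. With the block and without the pair of replicate 1 it was called lower (log2 -0.41, adjusted p = 0.0497). That setting called 153 of all genes tested lower.

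Another 11 genes of wall proteins and surface proteases were listed as outputs of the cascade through Rlm1, without a check here that each depends on it. All 11 of 11 had a log2 difference below 0, from -0.28 to -0.05, but 0 of 11 passed in either fit. Of all genes tested 63.1% lay below 0. The median was -0.17, and 11 of 11 lay below 0 with quantile normalization (median -0.17) and with a common median (-0.14, when 55% of all genes did). The wall protein genes CIS3 (-0.33, adjusted p = 0.0037) and CWP1 (-0.36, adjusted p = 0.00759) were called lower with the block when the pair of replicate 1 was left out. That setting called 153 of all genes tested lower, against 63 with all pairs, and no other setting called either gene. With all pairs their adjusted p with the block was 0.348 and 0.267. The pair left out gave 0.03 for CIS3 and -0.03 for CWP1. SVS1, a wall protein gene, had 539, 598 and 618 in wild type and 459, 494 and 492 in the mutant, without overlap (log2 -0.28, adjusted p = 0.135 with the block). YPS3, which encodes a surface protease, did not overlap either (119 ± 6.6 against 102 ± 4.2, n = 3, log2 -0.22). HSP150, a wall protein, had -0.25.

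Genes of daughter cell separation had a median of -0.12 with 0 of 8 passing, and DSE4, a glucanase that frees the daughter cell, had the largest difference (265 ± 37.3 against 201 ± 63.6, n = 3, log2 -0.43). DSE4 was called lower when replicate 3 was fitted as a batch (limma adjusted p = 0.047), but not with the replicate block on the signals as deposited (0.0593). With the block it was called lower under quantile normalization (0.0341), with a common median (0.0127) and without the pair of replicate 1 (0.00477). Those 3 settings called 104, 115 and 153 of all genes tested lower.

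**Figure D5:**
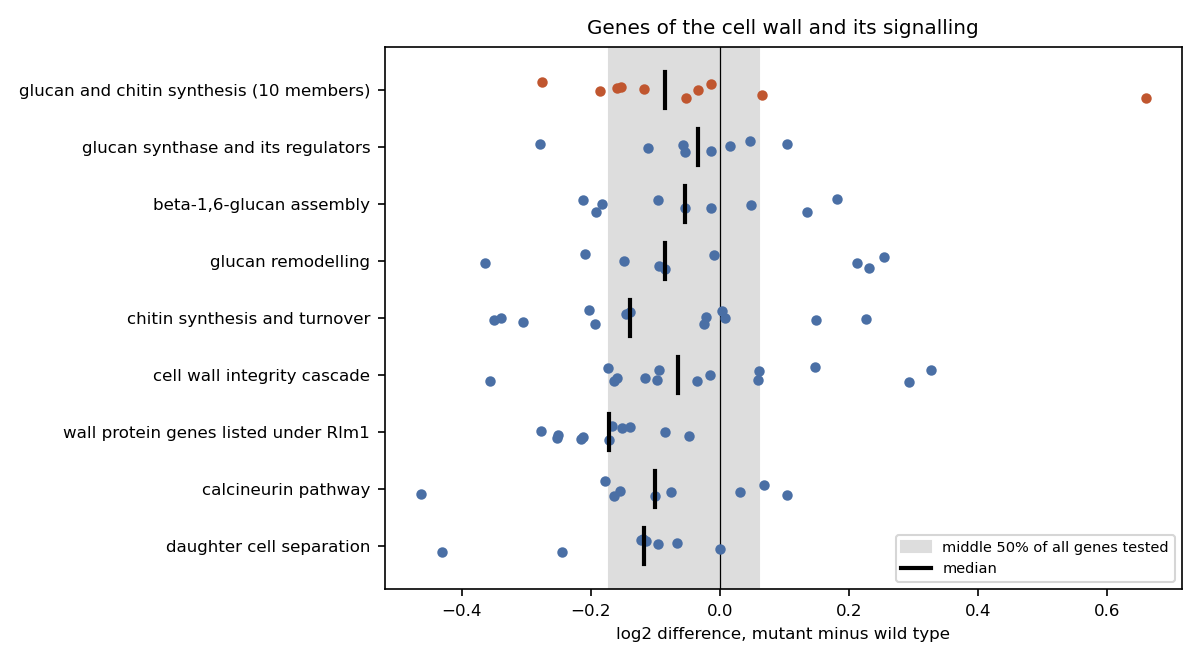
Log2 difference of mutant minus wild type for the 10 genes (orange) and for the tested genes of 8 functional lists (blue), with each list's median (black bar). The grey band holds the middle 50% of all genes tested. GSC2 is the rightmost point at 0.66, all 11 genes listed as wall protein outputs of Rlm1 lie below 0, and VCX1 is the leftmost point at -0.46.

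Since GSC2 is known to be used in sporulation, markers of sporulating cells were read beside it. None of 12 spore wall genes reached the level of the genes tested, and 11 of 12 had a mean signal under 10. Their summed signal was 52.3 to 69.1 on the wild-type arrays and 49 to 60.8 on the mutant arrays, lower in the mutant in each pair. They had 0 values listed at 0. Without SSP1, the brightest of them in wild type, the sums of the other 11 were 36.8, 42.5 and 47.6 in wild type and 45.5, 52.4 and 57.9 in the mutant, higher in each pair. SSP1 (log2 -1.79) was left out with its values known, and the direction of the sum depends on that 1 gene. Among the other 11, SPS2 (log2 -0.13), SPO1 (-0.14) and OSW1 (-0.25) had mean differences below 0 and the rest above, with SPR3 the largest (0.95). The part of such signals in the GSC2 values was not tested. The 4 alpha mating type genes summed to 58.2 to 72.1 and 60.2 to 74.8, and the 7 genes of the a mating type to 2293 to 3221 and 1845 to 2622. With the block 3 of 6 tested genes of the a mating type fell, beside 1.39% of all genes. They were BAR1 (log2 -0.63), AGA2 (-0.51) and MFA1 (-0.48, whose probe set may share signal). The limma adjusted p with the block was 0.00497 for BAR1, whose groups did not overlap. For AGA2 (0.0458) and MFA1 (0.0466) it was close to the threshold. STE2 (log2 -0.33) did not overlap either but was not called (adjusted p = 0.0977). With the group alone 0 of the 6 passed. The median of the 6 was -0.41, and STE6 went the other way (0.14), from pair 3 alone (0.93). In total RNA from whole cultures, fewer cells of a type and less RNA per cell cannot be told apart.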

How the data were processed

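The deposited file holds linear MAS5 signals, 1 intensity for each probe set and array, computed by the authors per the submitters' processing notes. Its software version, settings and detection calls are not stated. The mean after trimming each end was 125.1 to 125.2 on all 6 arrays, so the columns were used as deposited. Of 9335 probe sets, 60 controls were left out, and 6504 had 1 gene, 328 several and 2443 none in the platform's gene table. Symbols were updated through the R64 gene table, which held all 5656 genes. A gene was represented by its brightest probe set. An offset of 2.7 (the 10th percentile) was added before log2, so changes of dim genes are understated, and 1131 genes below the 20th percentile of mean level were not tested.

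The comparison used limma 3.58.1 under R 4.3.3 (lmFit, then eBayes with trend, two-sided, Benjamini-Hochberg over 4525 genes, threshold 0.05), with the group only as the main model and the replicate number as a block as its alternative. The arrays were paired by the replicate numbers in their labels. Deviations from group means of same-numbered arrays correlated at 0.52, 0.59 and 0.86. Arrays 1 and 2 of opposite groups correlated as highly (0.51 and 0.65). The correlations thus set replicate 3 apart, but they cannot show that array 1 pairs with 1 and 2 with 2. For those arrays the block and the counts over pairs rest on the labels alone. The labels do not say that replicates came from separate cultures. The p-values then measure only the spread between these arrays, possibly technical, and the number of arrays limits the precision. The model was tested on simulated data. The 10 genes and the lists were chosen with earlier results of these data known, and 1 gene of the lists is not reported here. Genes of the wall lists are named if called in either model, if among the 2 largest changes of a list without overlap between groups, or if named in the design; others (LRG1, KRE1, KRE5, SKN1, KEG1, ROT1, GAS3, SCW11, CIS3, CWP1, GNA1, HSP150, DSE4, CRZ1, RCN1, PMC1, SDP1 and the marker genes) were chosen after their values were seen.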

Additional observations from a re-analysis of the deposited data

How the results depend on the processing

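Without the block, the count of genes called higher was 0 under every scaling, offset, filter and probe set rule tried and 0 to 1 when single arrays were left out, and the count called lower stayed at 1. With the replicate block 40 genes were higher and 63 lower, with replicate 3 as a batch 45 and 74, with the block and quantile normalization 86 and 104, with the block and a common median 101 and 115, with the block and an offset of 1, 42 and 67, with an offset of 16, 40 and 63, and with no filter on dim genes 36 and 42. Leaving out the pair of replicate 1, 2 or 3 within the block gave 79, 13 and 7 higher and 153, 17 and 6 lower. Among the 10 wall synthesis genes, which were chosen with this comparison known, so that the counts are a description only, GSC2 was the 1 called higher and 0 were lower with the replicate block, the batch, and the block under both scalings, both offsets and no filter. Without single pairs the count higher was 0 to 1, with the call made without replicate 1 and not without replicate 2 or 3. Its log2 difference ran from 0.47 (without mutant replicate 3) to 0.85 (without mutant replicate 1) over 23 settings. GSC2 was too dim to be tested as the mean of its probe sets. Among the other wall genes 1 was lower with the block (VCX1) and 2 with the batch or with the block and either scaling, where DSE4 was added. The count was 1 with either offset or no filter, and 0 to 6 without single pairs. The count higher was 1 only with the block and no filter, from SDP1, and 0 in the other settings. FKS1, CHS1, CHS2, GAS1 and RHO1 changed sign in 8, 4, 2, 4 and 6 of 24 settings, none of them called in any. Part of these settings left out a single array. The groups are then unequal in replicate number, so those values also carry differences between replicates. Why these counts move was not tested. The residual degrees of freedom with the block are 2 per gene against 12.5 for the shared variance prior, so its calls lean on that prior.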

Other observations

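SDP1, which encodes a phosphatase that acts on Slt2, was too dim for the main comparison. It read 0.7, 1.3 and 9.8 in wild type and 6.1, 12.8 and 21 in the mutant, higher in all 3 pairs (log2 1.37, 1.95 and 0.92), with both replicate 3 arrays the highest of their group. SHC1, a relative of SKT5 that serves Chs3 during sporulation, was also dim and did not overlap between groups (8.6, 5.4 and 10.6 against 13.9, 13.8 and 13.4). Among the spore wall genes, SSP1, which acts at the leading edge of the forming spore membrane, read 15.5, 15.4 and 21.5 in wild type and 3.5, 2.8 and 2.9 in the mutant. SPR3, a septin gene of sporulation, went the other way without overlap (1.9, 1 and 2.4 against 6.7, 6.1 and 4.8), as did SPR1, a sporulation glucanase gene (4.9, 5.3 and 4.1 against 11.3, 6 and 6.5). At still lower signals, SPS2 was lower without overlap (0.7, 0.7 and 0.8 against 0.3, 0.4 and 0.6). SPS22 was higher without overlap (0.4, 0.2 and 0.4 against 0.5 on each mutant array). These genes were chosen after their values were seen.

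Across the 75 genes with at least 5 probe sets of their own, the difference of replicate 3 from replicates 1 and 2, averaged over both strains, was lower in the other probe sets than in the brightest one for 61 genes. The median gap was -0.55 on the log2 scale, with a range from -2.09 to 1.05. FKS1 had a gap of -1.60 and GSC2 of -1.38, while FKS3 had -0.26. Between mutant and wild type the other probe sets of these 75 genes had a median log2 difference of 0.03. For FKS1, GSC2 and FKS3 the mean over these other sets was 0.20, 0.36 and 0.31.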
